A study of Citrus unshiu with 2 samples.

Results

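The genes described here are transcription factors of the MYB, basic helix-loop-helix (bHLH), homeobox, basic leucine zipper (bZIP) and C2H2 zinc finger families, measured in stems of satsuma mandarin (Citrus unshiu). They were chosen by words in the Pfam, RefSeq, UniProt or NR descriptions of a table of 2568 genes that its authors call differential. The words matched 70 genes of that table, out of 23159 genes with an expression value. Of the 70, 64 are described as carrying a domain of 1 of the 5 families: 25 MYB, 16 bHLH, 11 homeobox, 5 bZIP and 7 C2H2 genes. The other 6 were matched because the letters of GRAS occur in "integrase" and "grasp", and they are described apart. A 71st bZIP gene, Cs6g14970, described as ABSCISIC ACID-INSENSITIVE 5 (ABI5), was set aside by the rule and appears only beside its neighbour.

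The light drought library came from wild-type trees on drying soil, sampled at Day 75 of the treatment. The control library came from wild-type trees kept on normal water, also sampled at Day 75. All trees stood under a plastic rain shelter with their roots confined, and 20 trees were set aside for each treatment. Both libraries are from mature stems of the shoots, and each treatment has 1 library, so there is no measure of spread between trees and no test between the treatments was possible. The number of trees in a library was not given in the sources used here. The series compared the libraries for genes related to flowering and to methylation.

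Transcription factors of these families bind short DNA motifs and switch target genes on or off. MYB and bHLH proteins often act together and are known for the control of phenylpropanoid, cuticle and secondary wall genes and of light-dependent growth. Some homeobox proteins of the KNOX and WOX types hold meristem and cambium cells in an undifferentiated state. Homeobox proteins of the HD-ZIP type and many bZIP proteins act in abscisic acid and light responses. Plant C2H2 proteins of the ZAT type are known as stress-induced repressors.

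Levels are RPKM, reads scaled to gene length and library size. The light drought library held 31760704 reads in genes and the control library 32856618. A ratio is log2((light drought + 0.5)/(control + 0.5)) on RPKM, in which the added 0.5 shrinks the ratios of weakly expressed genes. A gene was kept if its RPKM reached 1 in either library, and it is called higher or lower if it was at least 2-fold apart on this scale. Counting intervals are exact 95% intervals of the log2 RPKM ratio from the read numbers, without the added 0.5. They reflect sampling of reads and say nothing of how trees vary.

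Of the 64 factors, 53 were kept and 11 were below RPKM 1 in both libraries. In light drought stems 11 of the 53 were lower and 6 were higher, which is 20.8% and 11.3% of them. In RNA from whole stems, fewer cells of a type and less RNA per cell cannot be told apart. Among all 15654 kept genes the shares were 2.12% lower and 0.882% higher, but the factors come from a table chosen for differences. Within the 2055 kept genes of that table the shares were 14.9% lower and 5.99% higher, and this is the nearer background. The median ratio of the kept factors was -0.26, beside -0.23 for the kept genes of the table and 0.0024 for all kept genes. The medians were thus close, while 17 of the 53 factors, or 32.1%, were at least 2-fold apart in either direction, beside 20.9% of the kept genes of the table and 3% of all kept genes. No test of that difference was made. By position, 53 of the 64 lie on 8 of the numbered chromosomes, with 10 on chromosome 3, and 11 on sequence not assigned to a chromosome. Genes with a name in the descriptions had a median of -0.41 over 40 kept genes, and those without a name one of 0.36 over 13.

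**Figure D1:**
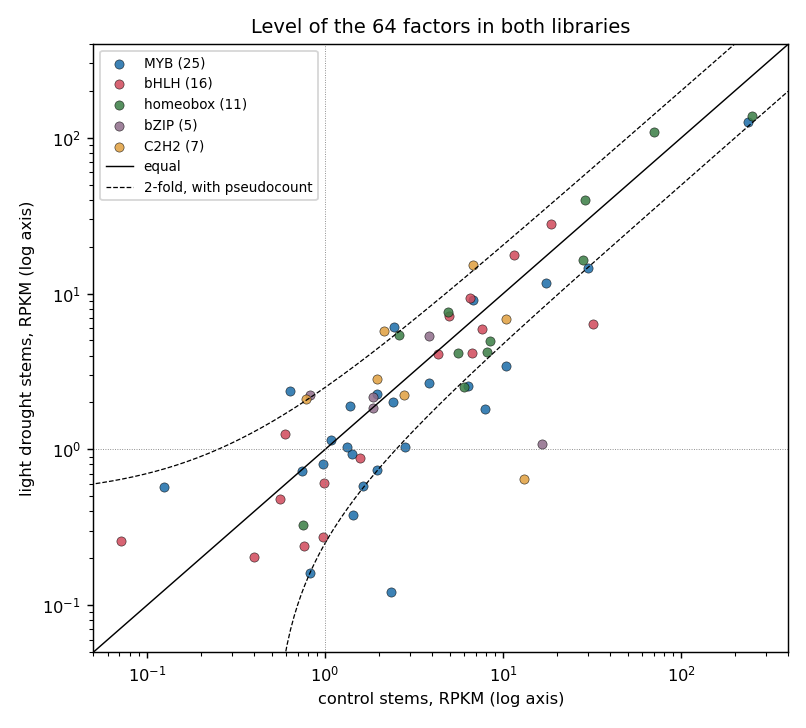
RPKM of the 64 factors in light drought stems (vertical, log axis) and in control stems (horizontal, log axis), 1 point per gene, coloured by family. The solid line marks equal levels, the dashed lines a 2-fold difference with the pseudocount of 0.5, and the dotted lines RPKM 1; the 3 genes at the top right, above RPKM 100 in at least 1 library, lie between the dashed lines.

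The factors covered a wide span of levels. RPKM passed 100 in at least 1 library for 3 genes, and those 3 made up 56.2% of the summed RPKM of the factors in light drought stems and 60.5% in control stems. The highest was ATHB-6 (Cs1g20000), an HD-ZIP gene whose Arabidopsis namesake dampens abscisic acid responses, at RPKM 138 in light drought stems against 249 in control stems. An unnamed MYB gene, Cs4g18250, stood at 125 in light drought and 237 in control stems. An unnamed HD-ZIP gene, orange1.1t02547, had the opposite order, at 109 in light drought and 70.3 in control stems. None of the 3 reached 2-fold, and their ratios were -0.85, -0.91 and 0.62.

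These 3 genes were also the best counted. ATHB-6 had 12679 reads in light drought and 23639 in control stems, and its counting interval ran from -0.88 to -0.82. Cs4g18250 had 4209 and 8212 reads, with an interval from -0.97 to -0.86. Summed RPKM of all 64 factors was 662 in light drought and 918 in control stems, and without the 3 it was 289 and 362. The median level of the factors was below that of all genes, at RPKM 2.33 in light drought and 2.69 in control stems, beside 3.45 and 3.55 over all 23159 genes.

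**Figure D2:**
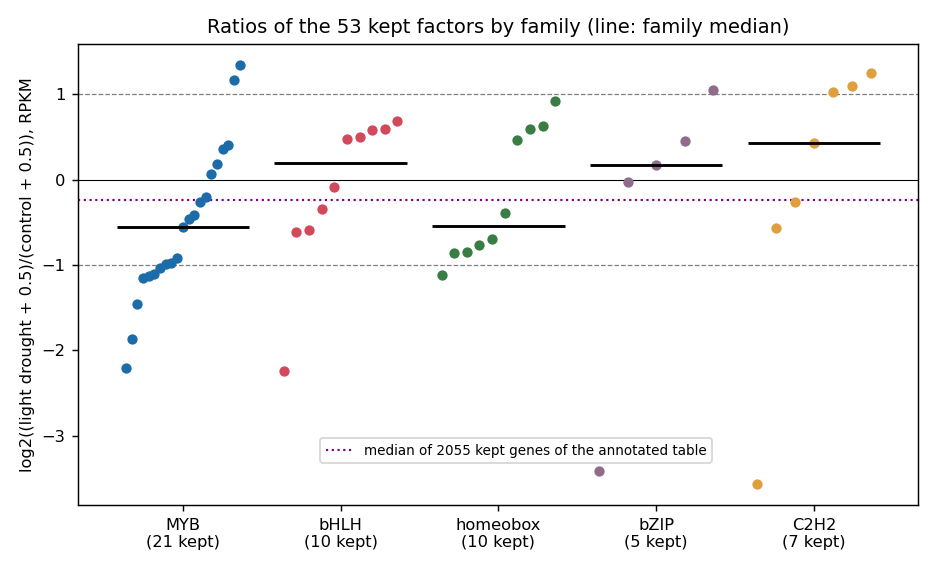
Ratio of each of the 53 kept factors, log2((light drought + 0.5)/(control + 0.5)) on RPKM, by family, sorted within each family. Black bars are family medians, dashed lines mark 2-fold, and the dotted line is the median of the 2055 kept genes of the annotated table (-0.23); the MYB median is -0.56 and the C2H2 median 0.43.

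MYB genes leaned to lower levels in light drought stems. Of the 25, 21 were kept, 7 of them were lower and 2 higher, and 15 of the 21 had ratios below 0. Below 0 were also 1158 of the 2055 kept genes of the table and 7760 of all 15654 kept genes. The MYB median was -0.56, and it lay between -0.97 and -0.45 under all other settings of pseudocount, minimum level and scaling. MYB genes with the plant-type Myb domain entry of InterPro (Myb domain, plants) had a median of -0.23 over 8 kept genes. The 13 without that entry had one of -0.98, with 5 lower and 2 higher. The difference between these subgroups has no test.

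Both genes described as MYB41, a regulator of cuticle and suberin lipids in Arabidopsis, were lower. Cs1g06220 (chromosome 1, 6188378 to 6190160, 3 exons) stood at RPKM 0.121 in light drought stems against 2.36 in control stems. It had 5 reads in light drought and 101 in control stems, so its ratio of -2.20 understates a difference whose counting interval ran from -5.94 to -3.02. The second copy, orange1.1t00339, was at 1.03 in light drought and 2.81 in control stems, with a ratio of -1.11 and an interval from -1.90 to -1.001. Control levels of the copies were close, while in light drought stems the first copy was far below the second. How reads shared between such copies were counted was not given in the sources used here.

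Both genes described as AS1 were lower as well. AS1 in Arabidopsis keeps KNOX genes off in young leaves. Cs6g18920 (chromosome 6, 18914038 to 18915917, 1 exon) was at RPKM 1.81 in light drought and 7.93 in control stems, with a ratio of -1.87 and an interval from -2.45 to -1.83. Cs6g06480 (chromosome 6, 8382264 to 8385467, 2 exons) was at 2.57 in light drought and 6.33 in control stems, with a ratio of -1.16. Only Cs6g06480 of the 64 carries the InterPro entry for rough sheath 2 and asymmetric leaves1, so the name of the first gene rests on its RefSeq description alone.

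Of the remaining lower MYB genes, 1 is abundant. MYB1R1 (Cs7g07830), of the group with a single Myb repeat, stood at RPKM 14.5 in light drought and 30.1 in control stems. Its ratio of -1.03 was just past 2-fold, with an interval from -1.17 to -0.94 that includes smaller differences. An unnamed gene with the MYB-CC motif of the phosphate starvation response family, Cs7g03680 (chromosome 7, 1695514 to 1697914), was at 3.43 in light drought and 10.3 in control stems (ratio -1.46, interval -1.81 to -1.37). The other 2 kept genes with that motif, orange1.1t03293 (PHR1-LIKE 3) and Cs5g26420, had ratios of -0.21 and 0.18. MYB77 (Cs3g23950), tied to auxin response in Arabidopsis, was at 0.381 in light drought and 1.43 in control stems, from 16 and 62 reads.

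Genes near the limit show how much the threshold decides. MYB52 (Cs5g27440) had a ratio of -0.99, at RPKM 0.739 in light drought and 1.96 in control stems. MYB13 (Cs5g29830) had one of -0.98, at 0.584 in light drought and 1.64 in control stems. The authors' deposited table calls both lower, with log2 fold changes of -1.41 and -1.48. Unnamed Cs6g21210, at 0.161 in light drought and 0.818 in control stems, stayed under the minimum level, though its interval ran from -3.65 to -1.23.

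The 2 higher MYB genes were MYB54 and an unnamed gene. MYB54 (Cs5g16420), which with MYB52 belongs to the MYB factors of secondary wall formation in Arabidopsis, stood at RPKM 6.14 in light drought and 2.45 in control stems (ratio 1.17, interval 1.02 to 1.64). MYB52 and MYB54 therefore lay on opposite sides of 0, with counting intervals that do not overlap. Unnamed Cs3g20590 (chromosome 3, 23635809 to 23637255) had the highest ratio of all factors, 1.34, at 2.38 in light drought and 0.634 in control stems. Its interval of 1.28 to 2.58 rests on 98 reads in light drought and 27 in control stems.

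Several other MYB genes with known roles were within 2-fold on the ratio scale or too weak to be kept. EFM (Cs4g17160), a repressor of the florigen gene FT in Arabidopsis, was at RPKM 1.15 in light drought and 1.07 in control stems (ratio 0.073). The cytokinin response regulator ARR2 (orange1.1t00294), which carries a Myb-like domain, was at 1.03 in light drought and 1.33 in control stems (-0.26). The intervals of both genes include 0. DIVARICATA (Cs8g19860), named for a gene of flower asymmetry in snapdragon, was at 11.6 in light drought and 17.3 in control stems (-0.56). MYB2 (Cs5g34990), an abscisic acid response factor in Arabidopsis, stayed under the minimum, at 0.578 in light drought and 0.124 in control stems, from 18 and 4 reads. Its ratio was 0.79, and its interval of 0.62 to 4.24 lies above 0.

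**Figure D3:**
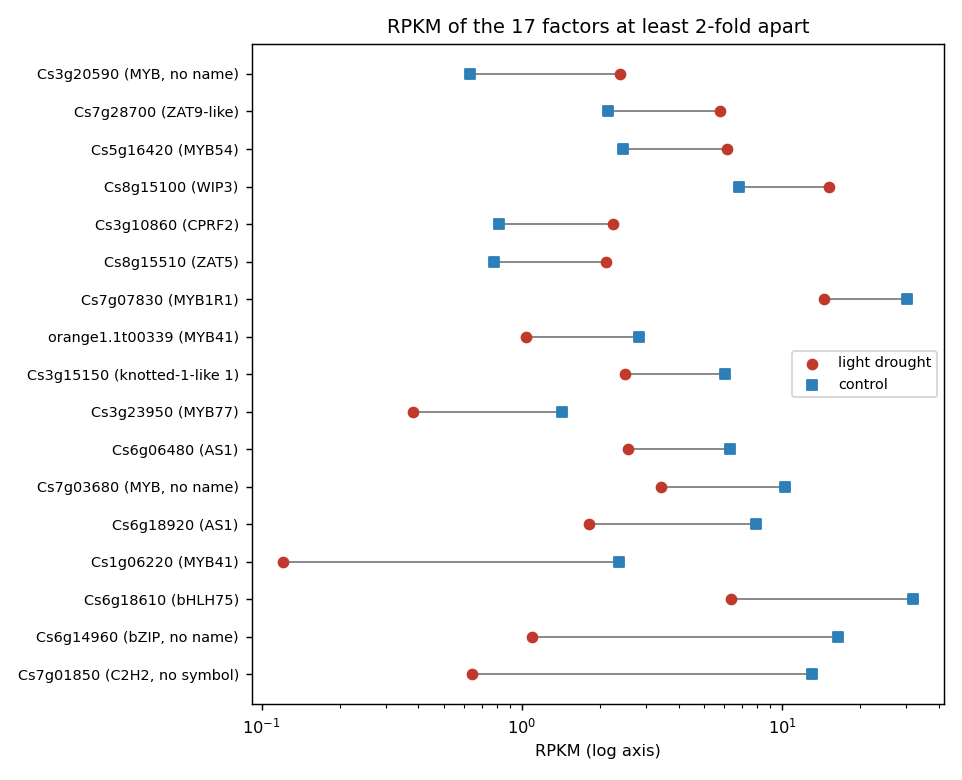
RPKM (log axis) of the 17 factors at least 2-fold apart, light drought as circles and control as squares, sorted by ratio. The 6 higher genes are at the top and the 11 lower genes below them; Cs7g01850, Cs6g14960 and Cs1g06220 have the longest lines.

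bHLH genes split, apart from a single large difference. Of 16, 10 were kept, with 5 ratios above 0 and 5 below. bHLH75 (Cs6g18610, chromosome 6, 18656828 to 18658660, 6 exons) was the 1 lower gene, at RPKM 6.35 in light drought and 31.9 in control stems, from 258 and 1339 reads. Its interval ran from -2.52 to -2.13, and it was the most abundant bHLH gene in the control but not in light drought. The next largest bHLH ratio in absolute value among kept genes was 0.68. The bHLH median of 0.20 turned to -0.23 without the minimum level and to -0.39 with RPKM rescaled to equal sums, which brings in weak genes, so the family has no stable direction.

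Among the 7 bHLH genes that reached RPKM 5 in either library, 4 had ratios above 0, each by less than 2-fold, and 3 had ratios below 0. bHLH122 (orange1.1t03173), of the FLOWERING BHLH group that activates CONSTANS in Arabidopsis, was at RPKM 28.04 in light drought and 18.5 in control stems (ratio 0.59, interval 0.50 to 0.70). bHLH107 (Cs3g17300) was at 17.6 in light drought and 11.5 in control stems (0.59). bHLH63 (Cs2g16420), known in Arabidopsis as a partner of the blue light receptor cryptochrome that promotes FT, went the other way, at 4.15 in light drought and 6.64 in control stems (-0.62, interval -0.87 to -0.49). The flowering-related bHLH122 and bHLH63 thus differed from the control in opposite directions. bHLH30 (Cs7g12800) had the highest bHLH ratio, at 1.25 in light drought and 0.592 in control stems. Of the 6 bHLH genes under the minimum, the authors' deposited table calls Cs1g20840 and Cs4g06760 lower.

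Homeobox genes differed by less than 2-fold, with 1 exception. Of 11, 10 were kept, 6 with ratios below 0, and the median was -0.55. The exception was the KNOX gene described as knotted-1-like 1 (Cs3g15150, chromosome 3, 19358070 to 19361947, 5 exons), at RPKM 2.497 in light drought and 6.02 in control stems. Its ratio was -1.12 and its interval ran from -1.55 to -0.99. The second KNOX gene, knotted-1-like 3 (orange1.1t04970), stood at 4.14 in light drought and 5.61 in control stems, and its interval of -1.11 to 0.22 includes 0. BEL1-like 4 (Cs1g23520), of the homeobox type that pairs with KNOX proteins, had a higher level in light drought, 39.9 against 28.9 in control stems (0.46).

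WOX4 (Cs3g23280), which in Arabidopsis keeps the vascular cambium dividing, was at RPKM 4.24 in light drought and 8.09 in control stems. Its ratio of -0.86 lay under 2-fold and its interval ran from -1.24 to -0.63. HD-ZIP genes went both ways: of 6 kept, 3 had ratios above 0 and 3 below. ATHB-13 (Cs7g04110) was at 4.99 in light drought and 8.40 in control stems (-0.70), and unnamed Cs5g01480 at 16.4 in light drought and 28.1 in control stems (-0.76). On the other side, orange1.1t02223, which also carries the HD-ZIP N-terminal domain, was at 5.40 in light drought and 2.601 in control stems (0.93), and the authors' deposited table gives it a log2 fold change of 1.05.

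Of the 5 bZIP genes, all kept, 1 was far lower and 1 higher. Cs6g14960 (chromosome 6, 16095955 to 16096629, 4 exons, 318 exon bases) stood at RPKM 1.09 in light drought and 16.5 in control stems. Its ratio of -3.42 was the 3rd lowest of all kept genes, with an interval from -4.95 to -3.04, from 11 reads in light drought and 172 in control stems. It has no name in the descriptions, but its InterPro entries include ABI5, a bZIP factor of abscisic acid response. The ABI5 gene Cs6g14970 lies on the same minus strand, 77 bases away at higher coordinates and so upstream of Cs6g14960. It stood at RPKM 0.323 in light drought and 3.59 in control stems, with a ratio of -2.31. Whether these are 2 genes or parts of 1 was not tested, so they should not be read as independent.

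The higher bZIP gene was Cs3g10860, named CPRF2 after a light-inducible factor of parsley, at RPKM 2.24 in light drought and 0.820 in control stems (ratio 1.05, interval 1.10 to 1.81). ABI5-like 1 (Cs8g15050), the other bZIP gene with an abscisic acid name, was close to equal, at 2.17 in light drought and 1.86 in control stems, and its interval of -0.11 to 0.55 includes 0. Cs8g15030, whose InterPro entries include the domain of TGA factors of salicylic acid response, was at 5.38 in light drought and 3.81 in control stems (0.45). The bZIP genes tied by name or InterPro entry to abscisic acid thus included both the largest difference of the family and a small one.

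C2H2 genes held the largest difference of all factors, downward, and the highest share of higher genes. Of 7, all kept, 3 were higher and 1 lower, beside 5.99% higher and 14.9% lower among the kept genes of the table. With a pseudocount of 1, 2 were higher. Further C2H2 genes that the rule did not match are given below, and none of those was higher. The lower gene, Cs7g01850 (chromosome 7, 556793 to 559126, 2 exons), had 24 reads in light drought and 505 in control stems. Its ratio of -3.57 was the 2nd lowest of all kept genes, and its counting interval ran from -5.00 to -3.76. It is a member through its UniProt description, has no Pfam entry, and carries no symbol.

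Among the 4 ZAT-type genes, 3 had ratios above 0. ZAT9-like (Cs7g28700) was at RPKM 5.78 in light drought and 2.14 in control stems (ratio 1.25, interval 1.05 to 1.83). ZAT5 (Cs8g15510) was at 2.10 in light drought and 0.780 in control stems (1.02, interval 0.84 to 2.06), and ZAT4 (Cs5g11490) at 2.81 in light drought and 1.96 in control stems (0.43). ZAT12 (Cs8g17960), known in Arabidopsis for induction by oxidative stress, was the exception, at 6.90 in light drought and 10.4 in control stems (-0.56, interval -0.85 to -0.35). WIP3 (Cs8g15100), of the WIP class of C2H2 factors, was the 3rd higher gene, at 15.2 in light drought and 6.80 in control stems (1.10, interval 0.93 to 1.39). IDD2 (Cs5g32710), of the indeterminate-domain class, had a ratio of -0.26.

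The authors' deposited table gives statistics for 25 of the 64 factors, 17 lower and 8 higher in light drought. These are 26.6% and 12.5% of the factors, beside 22.7% and 9.27% of all 2568 genes of the table. Over all 23159 genes the authors' deposited table has 2.51% lower and 1.03% higher, or 3.54% in all. All 17 factors at least 2-fold apart are among the 25, and of the other 8, 4 were under RPKM 1 in both libraries and 4 were kept but within 2-fold. In the authors' deposited table the false discovery rate is 0.121 for HAT7 (Cs6g21150) and at most 0.0238 for the other 24. These rates come from 1 library per treatment, so they hold no measure of spread between trees. The 32 kept factors without statistics had ratios from -0.91 to 0.62, 18 below 0 and 14 above. The reason for their place in the table was not given in the sources used here.

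**Figure D4:**
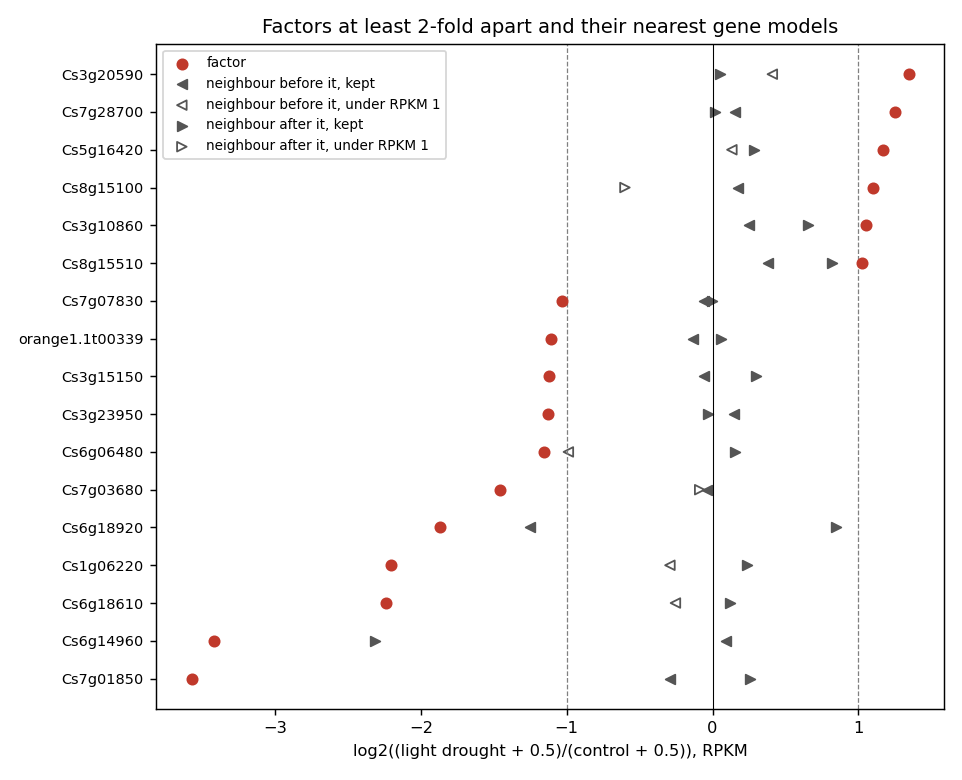
Ratio, log2((light drought + 0.5)/(control + 0.5)) on RPKM, of the 17 factors at least 2-fold apart (circles) and of the nearest gene model before and after each along the chromosome (triangles, open where RPKM was under 1 in both libraries). Dashed lines mark 2-fold; of 27 kept neighbours, 2 lie beyond it, beside Cs6g14960 and Cs6g18920.

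The gene models nearest to the 17 factors were read for comparison. Of 34, 27 were kept, and their median ratio was 0.12. At least 2-fold apart were 2 of the 27, or 7.41%, beside 3% of all kept genes. They were Cs6g14970, described above, and Cs6g18910, an allene oxide cyclase of jasmonate synthesis, at RPKM 3.24 in light drought and 8.39 in control stems, next to Cs6g18920. On the other side of Cs6g18920 lies RAV2 (Cs6g18930), with a ratio of 0.85. Within 100000 bases of each other lay 6 pairs of factors, and the 3 genes Cs8g15030, Cs8g15050 and Cs8g15100 on chromosome 8 had ratios of 0.45, 0.18 and 1.10. No factor shares exon bases with another gene model in the files. Coordinates are those of the files, on a genome build not given in the sources used here.

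No GRAS gene entered through the word GRAS, since in the deposited Pfam column none of 3165 descriptions begins with a capital G and the GRAS entry reads "RAS domain". InterPro entries identify 8 GRAS genes in the same table, looked up after the data were seen. The family includes the DELLA repressors of gibberellin response, though none of the 8 is described as one. SHORT-ROOT, a patterning factor of root and vascular tissue in Arabidopsis, has 2 genes among them. Cs5g23210 was at RPKM 19.8 in light drought and 7.79 in control stems (ratio 1.29, interval 1.18 to 1.51), and Cs1g21500 at 19.5 in light drought and 13.1 in control stems (0.56). SCARECROW-like 9 (Cs6g06570) was at 29.0 in light drought and 50.8 in control stems (-0.80). Of the 6 kept GRAS genes 1 was higher and none lower, and 4 had ratios below 0.

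InterPro also shows 13 further genes with a domain of the 5 families that the rule did not match, 9 of them kept. Most of these 9 carry a C2H2 entry, among them WIP2 (-0.75), NUTCRACKER (-0.33) and zinc finger protein 4 (0.32). Of the 9, 6 had ratios below 0 and 3 above, none was higher and 2 were lower. The trihelix factor PTL (orange1.1t01518), a gene of petal development in Arabidopsis, was at RPKM 1.65 in light drought and 7.71 in control stems, and Cs3g16740, with RING and C2H2 entries, at 2.36 in light drought and 6.36 in control stems. RADIALIS-like 3 (orange1.1t01763) stayed just under 2-fold, at 4.64 in light drought and 2.10 in control stems (0.98, interval 0.80 to 1.49). Of the 9, the authors' deposited table calls RADIALIS-like 3 higher and WIP2, Cs3g16740 and PTL lower. The 6 genes matched by spelling alone held none at least 2-fold apart on the ratio scale. They are Cs5g14940, Cs6g10950 and orange1.1t04175, of retroelement type, the ATP-citrate synthase Cs7g08950, the carboxylase orange1.1t04964 and the glutamine synthetase Cs9g05680. Ratios of the kept ones ran from -0.80 to 0.91. The authors' deposited table calls orange1.1t04175 higher and Cs6g10950 and orange1.1t04964 lower, with log2 fold changes of 1.40, -1.18 and -1.12.

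Other transcription factor families of the table, read the same way, differed in their makeup. AP2/ERF genes had 9 lower and 0 higher of 19 kept, with a median of -0.92. WRKY genes had 0 lower and 1 higher of 10 kept, with a median of 0.49. NAC genes had 2 lower and 0 higher of 5 kept, with a median of -0.42. MADS-box genes had 2 lower and 0 higher of 5 kept, with a median of -0.88. As background, 14.9% of the kept genes of the table were lower and 5.99% higher. Each of these families had ratios both above and below 0. The factors described here held both lower and higher genes, but only as a pool of 53 kept genes from 5 families. Taken alone, bHLH and homeobox genes had 1 lower and 0 higher each. No test between families was made.

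Genes of pathways that these factors are known to act in were read beside them. Of 12 kept lignin enzymes 3 were higher and 0 lower, beside 5.99% higher and 14.9% lower among the kept genes of the table. The lignin median was 0.45. The highest ratio, 1.59 for Cs4g02410, is of a gene described only as cinnamoyl-CoA reductase-like. Ratios below 0 were those of a caffeic acid O-methyltransferase (orange1.1t01083, -0.73) and a cinnamoyl-CoA reductase (Cs3g01140, -0.46). Phenylalanine ammonia-lyase, the entry enzyme of the pathway, has 3 kept genes, and only Cs6g11940 passed 2-fold, at RPKM 39.4 in light drought and 18.8 in control stems (1.04). Cs7g24940 was at 12.8 in light drought and 11.5 in control stems (0.14), and Cs7g25030 had a ratio of 0.72. Of 8 kept flavonoid matches 3 were higher and 1 lower, with a median of 0.87. Text matching brought in a pair of acridone synthases (1.18 and 0.79), so that median does not describe the flavonoid pathway alone. Besides an acridone synthase, the higher matches were chalcone synthase 2-like (1.14) and an isoflavone reductase homolog (1.70). Ratios below 0 were those of a flavonol synthase (-0.73), unnamed Cs4g06290 (-0.93) and an anthocyanidin glucosyltransferase (-1.07). All 11 genes of the light harvesting list had ratios above 0, 2 of them higher. Of these 2, 1 is early light-induced protein 1 (1.82), a stress- and light-induced gene, so that list does not describe light harvesting alone. The other is Cs4g07150 (1.10). Of 3 gibberellin matches 2 were kept, and gibberellin-regulated protein 14 (Cs6g20220) was lower, at 7.15 in light drought and 18.7 in control stems. Which factor acts on which gene cannot be read from 2 libraries.

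Markers of the tissues a stem holds were read from the same descriptions, and only genes of the table could be matched. The 33 photosynthetic matches summed to RPKM 2374 in light drought and 1196 in control stems, with 32 of 33 ratios above 0 and a median ratio of 0.60. The exception, a ribulose bisphosphate carboxylase small chain (Cs4g03580), was lower, at 7.30 in light drought and 23.9 in control stems (-1.64). Early light-induced protein 1 (Cs9g07670), a stress- and light-induced gene, gave 1118 of the photosynthetic sum in light drought and 317 in control stems. Without it, a choice made after its value was seen, the sums were 1255 in light drought and 879 in control stems. The xylem and secondary wall words matched only cellulose synthase A subunits 1 and 2, which in Arabidopsis are of the primary wall type, so that list does not mark xylem. They summed to 51.8 in light drought and 83.1 in control stems. The 7 phloem matches summed to 12.7 in light drought and 13.0 in control stems. Of 6 kept, 4 had ratios above 0 and 2 below. The 7 dividing tissue matches summed to 10.8 in light drought and 15.0 in control stems. Of 5 kept, 4 had ratios below 0 and 1 above. Text matching mixed these lists too, with an F-box protein described as PP2-B12 among the phloem matches. Cyclin-dependent kinase C-1, which is no cyclin, came into the dividing tissue list. No root marker was matched, and no matched gene of these lists was at 0 in both libraries. The 12 pollen and anther matches summed to 2427 in light drought and 1613 in control stems. Undescribed Cs5g07852 (1500 in light drought, 750 in control stems) and Cs5g07856 (544 and 245) dominate these sums. Of 10 kept, 8 had ratios below 0, and the median was -0.76. Expansins and undescribed genes came in through a Pfam entry named for pollen allergens, so that list does not mark pollen. The part of tissue makeup in the differences above was not tested.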

How the data were processed

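The authors deposited RPKM for 23159 genes in both libraries, per the file headers relative to the listed gene length. Reads were trimmed with Trimmomatic 0.36, per the submitters' processing notes; the aligner, counting tool and genome build were not given in the sources used here. Library totals and read numbers were recovered from RPKM and length, with 100% of values above 0 within 0.01 of a whole read. A second table gives 2568 described genes, and for 820 the p-value, false discovery rate (a q-value) and log2 fold change deposited by the authors.

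Ratios use a pseudocount of 0.5 and a minimum RPKM of 1. Intervals are Clopper-Pearson limits at 95%, conditional on the summed reads of 1 library per group, and cover counting error only. PCR copies were not told apart by molecular identifiers, so the limits may be too narrow even for counting error. A count of 3 reads corresponds to RPKM 0.0550 in light drought and 0.0532 in control stems at the median factor length of 1717 bases. The ratio and interval code was checked on simulated libraries. No p-value was computed with 1 library per group. Members, gene lists and text patterns were chosen with earlier results of these data known. Named genes are the kept factors at least 2-fold apart, the 2 most abundant of each family, kept factors with statistics in the authors' deposited table and some with listed names. Genes near the threshold, with notable roles or outside the 64 were named after their values were seen. Leaving out the 6 spelling matches was decided on descriptions, after seeing the data. The alternatives were pseudocounts of 0.1 and 1, minimum RPKM of 0 and 5, folds of 1.5 and 4, equal sums, trimmed mean scaling (trimming 30% of ratios and 5% of levels) and Pfam members alone. The reference table of locus tags matched 0 identifiers and was not used. Tables were made in pandas 2.3.3, intervals in scipy 1.17.1, other values in numpy 2.4.6 and plots in matplotlib 3.10.9, under Python 3.11.15.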

Additional observations from a re-analysis of the deposited data

How the results depend on the processing

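No paired analysis was possible because there was 1 library per treatment, and for the same reason no library could be left out. Of the counts of factors (11 lower, 6 higher), a threshold of 1.5-fold gave 20 lower and 12 higher and one of 4-fold gave 4 lower and 0 higher, by construction. A minimum RPKM of 5 gave 8 lower and 3 higher, from 31 kept genes. The other settings gave 9 to 15 lower and 4 to 7 higher, and with all 70 text matches, an alternative chosen after seeing the data, the counts were the same. The median ratio ranged from -0.56 with a minimum RPKM of 5 to -0.23 with a pseudocount of 1. The bHLH median changed sign as given above, and the bZIP median was -1.48 from the 2 genes left by a minimum RPKM of 5. Equal sums shifted the median of all kept genes by -0.044 and trimmed mean scaling by 0.0064. Of the authors' calls, 16 of 17 lower and 8 of 8 higher have a false discovery rate of at most 0.05. These rates too rest on 1 library per treatment. Ratios of 31 named factors under 4 alternatives gave 124 values, of which 1 moved (ATHB-6 under equal sums, from -0.85 to -0.89) and none reversed. A pseudocount cannot change the sign of a ratio, and both scalings shifted the median little. The lack of reversals therefore does not test the directions. Depth limits the weakest genes most, such as Cs1g06220 with 5 reads in light drought.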
